A study of Homo sapiens with 12 samples.

Results

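HT29 cells, an established line of human colorectal cancer, were transfected with siLRH-1 #1, an siRNA against LRH-1, and compared with the same cells given siLUC, a control siRNA against luciferase, which the cells do not carry. The comparison held the 4 arrays of siLRH-1 #1 and the 4 arrays of siLUC, 8 of the 12 arrays in the series, and these were chosen by their sample labels. The remaining 4 arrays held cells given siLRH-1 #2, an siRNA against another stretch of the same mRNA. All 3 groups were reverse-transfected at 5 nM with Lipofectamine RNAiMax in DMEM with serum, and RNA was taken after 24 h, so the transfection itself was shared by the control. Each group held 4 biological replicates of 1 cell line, hybridised to Illumina HumanHT-12 v4 bead arrays. The values are log2 signals of probes, and the authors had put them through quantile normalization.

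LRH-1, encoded by NR5A2, is an orphan nuclear receptor that binds DNA as a monomer and is held in an active shape by phospholipids. In liver and gut it controls genes of bile acid, cholesterol and glucocorticoid synthesis, and in intestinal crypts it works beside beta-catenin on genes that drive entry into the cell cycle. An siRNA lowers the mRNA that it matches in full. Like a microRNA, it can also lower other mRNAs that match the start of its guide strand, a property known from many siRNAs and not measured in these arrays. NR5A2 itself was not analysed here, so how far its mRNA fell is not known from these values. Of the named probes, 90.4% carried gene symbols starting with A to M, and most genes with later symbols were not analysed here, which leaves many pathways covered in part.

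Of 16381 probes, 1146 (7.00%) were called with siLRH-1 #1, that is, had a limma adjusted p under 0.05. Of these, 527 (3.22% of all probes) were higher and 619 (3.78%) were lower than with siLUC. Most changes were small. A change of at least 1.2-fold was seen in 306 of the probes called higher and 424 of those called lower. At 1.5-fold or more the directions parted, with 19 probes higher (0.116%) and 75 lower (0.458%), 94 in all (0.574%). At 2-fold or more, 12 probes were lower and 1 was higher. The median change over all probes was 0.00 on the log2 scale. The 4 siLRH-1 #1 arrays lay wholly to 1 side of the 4 siLUC arrays for 1084 of the called probes, against 13.2% of all probes. Without siLRH-1 #1 replicate 4 the number of called probes was 700, with 285 higher, the lowest count over the 12 arrays left out in turn. In bulk RNA, fewer cells of a kind and less RNA per cell cannot be told apart.

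**Figure D1:**
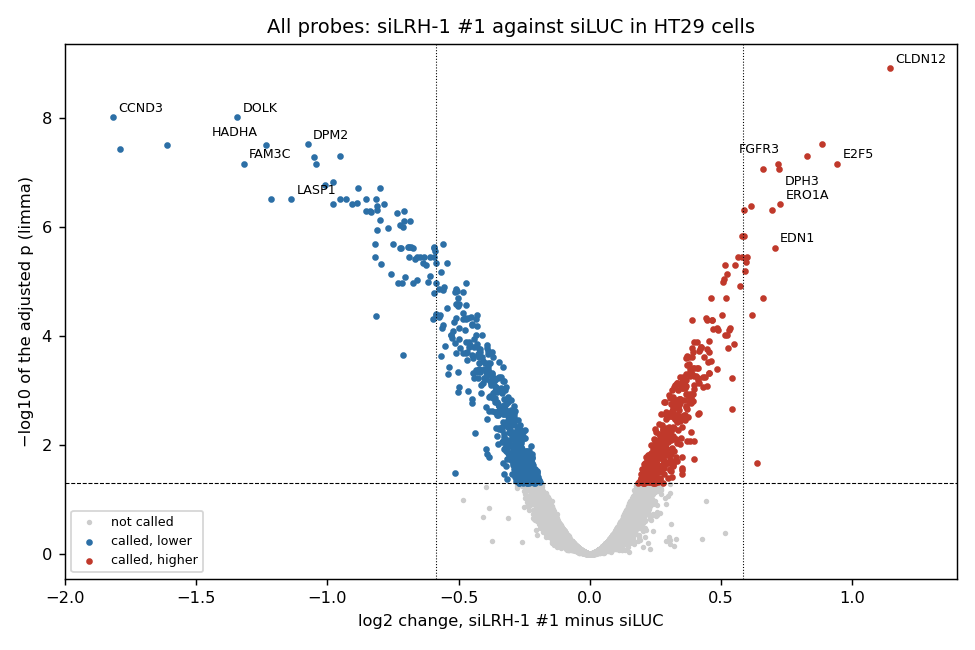
Each point is 1 of 16381 probes, with the log2 change (siLRH-1 #1 minus siLUC) on the x axis and −log10 of the limma adjusted p on the y axis. The dashed line marks an adjusted p of 0.05 and the dotted lines a change of 1.5-fold, and the left arm, with 75 called probes past the line, reaches further out than the right arm, with 19.

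Counted as genes, with the brightest probe of each, 749 of 7331 genes were called (10.2%), 370 higher (5.05%) and 379 lower (5.17%). The called genes had a median change of 1.22-fold where higher and 1.24-fold where lower. A further 192 called probes carried no gene symbol, 75 higher and 117 lower. Without siLRH-1 #1 replicate 4, 473 genes were called, 207 higher and 266 lower. Over the largest changes the values of this array stood furthest from the control. It was the lowest of the 4 siLRH-1 #1 arrays for 17 of the 20 genes with the largest falls, and the highest for 10 of the 20 with the largest rises. Its median difference from the siLUC mean was -0.36 over the genes called lower, against -0.31 to -0.33 in the other 3 arrays.

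The largest fall was in CCND3, cyclin D3, which activates CDK4 and CDK6 at the start of the cell cycle. Its log2 signal was 11.87, 11.43, 11.46 and 11.69 with siLUC and 9.94, 9.90, 9.91 and 9.43 with siLRH-1 #1. All 4 siLRH-1 #1 arrays were lower than every siLUC array, a fall of 3.52-fold (log2 change -1.82, SE 0.12, adjusted p = 9.82e-09). With siLRH-1 #2 the signal was 11.20 to 11.80, a change of -0.10 that was not called (adjusted p = 0.73). Set directly against siLRH-1 #2, the log2 signal differed by -1.71 (SE 0.12, adjusted p = 6.3e-09).

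Among genes with a symbol, the next largest fall was in an enzyme of the dolichol pathway, and a second gene of this pathway was among the 10 largest falls. Dolichol phosphate is the lipid on which sugar chains are built before they are passed to proteins in the endoplasmic reticulum (ER). DOLK, the kinase that makes dolichol phosphate, gave 9.33, 9.0, 9.04 and 9.27 with siLUC and 7.94, 7.87, 7.92 and 7.53 with siLRH-1 #1. The groups were separate, and DOLK fell 2.54-fold (log2 change -1.34, SE 0.09, adjusted p = 9.82e-09). DPM2, which holds dolichol-phosphate mannose synthase in the membrane, gave 8.60, 8.45, 8.51 and 8.61 with siLUC and 7.54, 7.40, 7.63 and 7.30 with siLRH-1 #1. It fell 2.11-fold (SE 0.08, adjusted p = 3.1e-08). With siLRH-1 #2 neither was called (log2 changes -0.22 and -0.25, adjusted p = 0.178 and 0.0676), and the direct differences between the siRNAs were -1.13 and -0.83 (adjusted p = 2.53e-08 and 3.6e-07).

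FAM3C, a secreted cytokine-like protein, and HADHA, the alpha subunit of the mitochondrial trifunctional protein of fatty acid oxidation, fell further than DPM2. FAM3C gave 8.94, 8.80, 8.75 and 8.94 with siLUC and 7.54, 7.71, 7.70 and 7.21 with siLRH-1 #1. It fell 2.49-fold (SE 0.11, adjusted p = 7.04e-08). A second FAM3C probe had a log2 change of -1.21 (adjusted p = 3.1e-07). With siLRH-1 #2 FAM3C moved the other way, to between 9.03 and 9.52 (log2 change 0.42, adjusted p = 0.0187), and the direct difference was -1.74 (adjusted p = 5.77e-10). HADHA gave 8.21, 7.92, 8.01 and 8.24 with siLUC and 6.93, 6.85, 6.96 and 6.70 with siLRH-1 #1, a fall of 2.35-fold (SE 0.09, adjusted p = 3.15e-08). It was 7.79 to 8.32 with siLRH-1 #2, where it was not called (adjusted p = 0.917).

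LASP1, an actin-binding scaffold, was among the brightest of these genes. Its signal was 12.35, 12.27, 12.51 and 12.62 with siLUC and 11.50, 11.36, 11.23 and 11.12 with siLRH-1 #1, a fall of 2.20-fold (SE 0.11, adjusted p = 3.1e-07). ELK1, an ETS transcription factor that responds to MAP kinases, was 10.18, 9.91, 9.93 and 10.04 with siLUC and 9.03, 8.94, 9.09 and 8.80 with siLRH-1 #1, a fall of 2.07-fold (SE 0.08, adjusted p = 5.3e-08). CNOT11, a subunit of the CCR4-NOT complex that shortens poly(A) tails, was 11.14, 10.93, 10.98 and 11.14 with siLUC and 10.10, 10.10, 10.01 and 9.83 with siLRH-1 #1, a fall of 2.06-fold (SE 0.09, adjusted p = 7.04e-08). In each of these genes the highest siLRH-1 #1 array was below the lowest siLUC array. None of the changes with siLRH-1 #2 was called (log2 changes -0.16, -0.11 and -0.01, adjusted p = 0.455, 0.536 and 0.96).

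The other 12 genes of the 20 largest falls, picked for no overlap of arrays, dropped between 1.75-fold and 1.97-fold. FBXW11, the F-box protein beta-TrCP2 that marks proteins for ubiquitin ligation, and AGFG1, an adaptor of endocytosis, each fell 1.97-fold (adjusted p = 1.49e-07 and 3.84e-07). MAL2, a membrane protein of transcytosis in epithelial cells, fell 1.93-fold, and MAPKAPK5, a kinase downstream of MAP kinases, 1.85-fold (adjusted p = 3.1e-07 and 3.7e-07). REXO5, an RNA exonuclease, and HMGB2, a chromatin protein that bends DNA, each fell 1.81-fold (adjusted p = 5.15e-07 and 3.1e-07). CISD2, an iron-sulphur protein of ER and mitochondria, and DNAJC9, a histone chaperone of the DNAJ family, each fell 1.78-fold (adjusted p = 5.17e-07 and 5.34e-07). MZT1, which recruits the gamma-tubulin complex, ATP11B, a phospholipid flippase, and C1orf174 each fell 1.76-fold, and HEBP2, a haem-binding protein, 1.75-fold. Their adjusted p lay between 3.1e-07 and 4.21e-05.

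**Figure D2:**
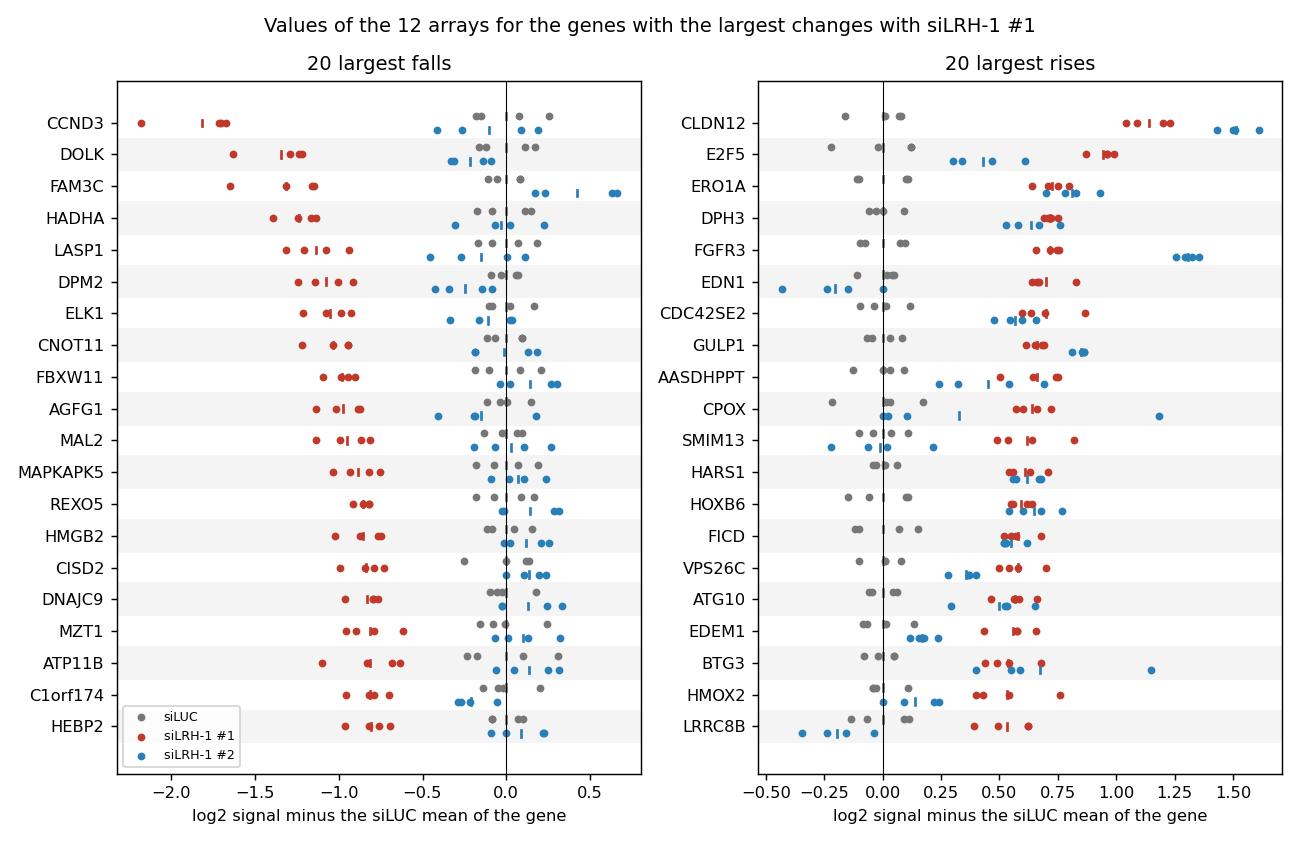
Points are single arrays, given as log2 signal minus the siLUC mean of the gene (x axis), for the 20 genes with the largest falls and the 20 with the largest rises with siLRH-1 #1 (y axis), and short lines are group means. The genes were picked for siLRH-1 #1 arrays that lie apart from the siLUC arrays, so this gap was set by the choice. The siLRH-1 #2 arrays lie near siLUC for most falls, such as CCND3 and HADHA, and near siLRH-1 #1 for many rises, such as ERO1A and HARS1.

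Among the rises CLDN12, a claudin of tight junctions, was the largest. Its log2 signal was 7.78, 7.84, 7.85 and 7.61 with siLUC and 8.97, 8.86, 8.81 and 9.0 with siLRH-1 #1, with no overlap. It rose 2.21-fold (SE 0.07, adjusted p = 1.25e-09), the only called rise past 2-fold. With siLRH-1 #2 it was higher still, with a difference of -0.37 (siLRH-1 #1 minus #2, adjusted p = 0.000588). E2F5, an E2F factor that acts with pocket proteins to repress cell cycle genes, was 9.28, 9.62, 9.62 and 9.48 with siLUC and 10.49, 10.37, 10.46 and 10.46 with siLRH-1 #1. It rose 1.92-fold (SE 0.08, adjusted p = 7.04e-08), more than with siLRH-1 #2 (1.34-fold, direct difference 0.52, adjusted p = 8.17e-05).

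EDN1, the precursor of the peptide endothelin-1, was 7.36, 7.39, 7.38 and 7.23 with siLUC and 8.01, 8.00, 7.98 and 8.17 with siLRH-1 #1. It rose 1.63-fold (SE 0.08, adjusted p = 2.41e-06), and with siLRH-1 #2 it was 6.91 to 7.34 and not called (log2 change -0.20, adjusted p = 0.125). The direct difference was 0.91 (adjusted p = 5.42e-08). DPH3, which acts in diphthamide synthesis on elongation factor 2, was 8.44, 8.53, 8.41 and 8.38 with siLUC and 9.16, 9.15, 9.13 and 9.19 with siLRH-1 #1. The 3 probes of DPH3 all rose, by 0.72, 0.59 and 0.55 on the log2 scale. FGFR3, a receptor of fibroblast growth factors, was 8.26, 8.24, 8.07 and 8.09 with siLUC and 8.82, 8.91, 8.92 and 8.88 with siLRH-1 #1, a rise of 1.64-fold that its other, dim probe did not show (log2 change -0.06, adjusted p = 0.755).

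Further rises with no overlap of arrays were in genes of varied roles. AASDHPPT, which attaches the phosphopantetheine arm to fatty acid synthase, rose 1.58-fold (adjusted p = 2.02e-05), the phagocytosis adaptor GULP1 1.58-fold (8.84e-08) and CDC42SE2, a binding partner of CDC42, 1.62-fold (5.02e-07). SMIM13, a small membrane protein, rose 1.54-fold (4.15e-05) and VPS26C, a subunit of the retriever complex of endosomes, 1.49-fold (1.46e-06). ATG10, an E2-like enzyme of autophagy, also rose 1.49-fold (1.2e-05), and its other probe rose by 0.52 on the log2 scale. HMOX2, a haem oxygenase, rose 1.45-fold (7.23e-05) and LRRC8B, a subunit of volume-regulated anion channels, 1.44-fold (7.78e-05). BTG3, an antiproliferative protein, rose 1.46-fold (0.00213), a call that was lost (0.0658) when each gene kept its own spread. BTG3 spread most widely with siLRH-1 #2, from 9.83 to 10.58, against 9.35 to 9.48 with siLUC and 9.87 to 10.11 with siLRH-1 #1. CPOX, an enzyme of haem synthesis, was 8.49 to 8.88 with siLUC and 9.28 to 9.43 with siLRH-1 #1, a rise of 1.56-fold whose adjusted p was only 0.0214. CPOX spread most widely with siLRH-1 #2, from 8.71 to 9.89. On the 8 arrays of siLUC and siLRH-1 #1 alone its adjusted p was 5.62e-06, and with single arrays left out it missed the threshold 4 times (0.0595, 0.053 and 0.0521 when siLRH-1 #1 replicate 1, 3 or 4 was dropped and 0.0724 when siLUC replicate 3 was).

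Probes with no gene symbol took 8 places among the 40 largest probe changes, 20 in each direction. The 5 that fell dropped between 1.88-fold and 3.46-fold and are not named here. The 3 that rose, HS.374278, LOC729680 and LOC647597 by the study's own names, changed between 1.5-fold and 1.77-fold.

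Many called genes were measured by more than 1 probe, which gives a second reading in the same RNA. Of the called genes, 252 had 317 other probes. Of these, 281 changed in the same direction, 124 were called in that direction and 0 in the opposite one. Among the 171 other probes with a mean log2 signal of at least 7, 166 changed in the same direction and 103 were called. Genes whose brightest probe was not called are outside these counts. For such genes, a dimmer probe of EIF1AX (log2 change -1.01, adjusted p = 1.73e-07) and of ATP2A2 (-0.88, 1.91e-07) was called lower with no overlap of arrays. The other probes of HMGB2 (log2 change -0.72), MAPKAPK5 (-0.67), FBXW11 (-0.67) and MZT1 (-0.76 and -0.72) were called with falls near those of the probes used. ATP11B had a wide gap, with -0.82 by the probe used and -0.27 by the other (adjusted p = 0.0402). HOXB6 and LRRC8B had a dim other probe with no called change (log2 changes -0.08 and 0.02, adjusted p = 0.603 and 0.89).

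**Figure D3:**
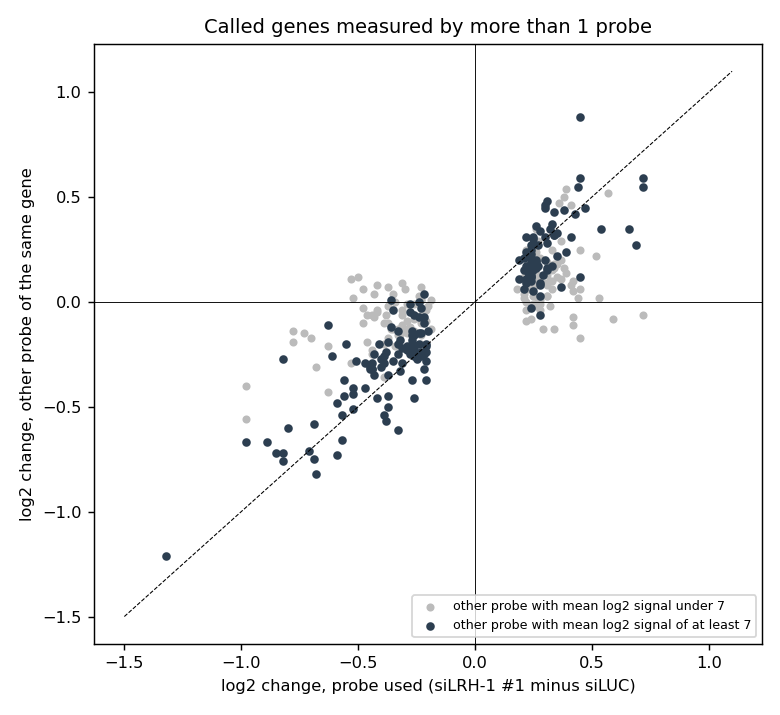
Each point is another probe of a called gene, with the log2 change by the probe used on the x axis and by the other probe on the y axis, both siLRH-1 #1 minus siLUC. The dashed line marks equal changes, and of the 171 dark points (mean log2 signal of at least 7) 166 lie where both changes have the same sign.

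The genes called with siLRH-1 #1 had their own values with siLRH-1 #2. Both sets of changes use the same 4 siLUC arrays, so their likeness is no independent measure. Only the size of the direct difference between the siRNAs is free of those arrays, while its p-value also draws on their spread. The median change with siLRH-1 #2 was 0.17 on the log2 scale for the genes called higher with siLRH-1 #1, whose own median was 0.28. For the genes called lower it was -0.03, against their own median of -0.31. A direct difference between siLRH-1 #1 and siLRH-1 #2 was called for 254 of the 379 genes called lower (67.0%) and for 122 of the 370 called higher (33.0%), while 14.7% of all genes had one. These genes were picked with the same siLRH-1 #1 arrays that enter the direct difference, which raises both shares. Of the 254 genes, siLRH-1 #2 gave the higher level in 248.

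Genes of protein folding in the ER were called more often than genes as a whole. The ER folds secreted proteins with chaperones and oxidases, and when misfolded proteins collect, the unfolded protein response raises these genes together with those of ER-associated degradation, which sends misfolded proteins to the proteasome. Of 29 measured genes of ER chaperones and the unfolded protein response, 7 were higher and 1 was lower (27.6% called, against 10.2% of all genes, median log2 change 0.04). Of the 7, 4 stayed called with any 1 array left out, the lowest count being without siLRH-1 #1 replicate 4. ERO1A, the oxidase that makes disulphide bonds, was 7.87, 8.09, 8.08 and 7.88 with siLUC and 8.62, 8.69, 8.73 and 8.78 with siLRH-1 #1, a rise of 1.65-fold (SE 0.07, adjusted p = 3.84e-07). FICD, which modifies the chaperone BiP, was 7.36, 7.44, 7.17 and 7.19 with siLUC and 7.86, 7.81, 7.84 and 7.97 with siLRH-1 #1, a rise of 1.49-fold (SE 0.07, adjusted p = 3.57e-06). DNAJB9, a BiP co-chaperone, rose 1.35-fold (adjusted p = 0.000571) and DNAJC12 1.30-fold (adjusted p = 0.00053). DNAJB9 moved in opposite directions with the siRNAs, its log2 change being -0.28 with siLRH-1 #2, with a direct difference of 0.71 (adjusted p = 7.95e-07). CANX, the lectin chaperone calnexin, fell 1.43-fold (SE 0.07, adjusted p = 5.61e-05).

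Of 15 measured genes of ER-associated degradation, 6 were higher and 1 was lower (46.7%, median log2 change 0.16), and 5 of the 6 stayed called with any 1 array left out. EDEM1, which trims and delivers misfolded glycoproteins, was 7.61, 7.69, 7.81 and 7.59 with siLUC and 8.25, 8.25, 8.11 and 8.33 with siLRH-1 #1. It rose 1.48-fold (SE 0.06, adjusted p = 3.6e-06), more than with siLRH-1 #2 (1.13-fold, direct difference 0.39, adjusted p = 0.000182). HERPUD2 rose 1.44-fold (adjusted p = 0.000169), the lectin ERLEC1 1.43-fold (7.37e-06) and FAF2, which recruits the extracting ATPase p97, 1.37-fold (0.000473). DERL2, a channel component of this pathway, fell 1.4-fold (SE 0.06, adjusted p = 1.55e-05). The list was chosen with the rise of such genes in these samples known, and so its count is no independent evidence of its direction.

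The ER stress response element on either strand, the letters CCAAT and CCACG set 9 bases apart, to which ATF6 and NF-Y bind in promoters of ER chaperones, was looked for in RefSeq promoter windows of 250 bases before to 50 bases after the start of the gene (GRCh38.p14). This search was added after the values were seen. The element was in 22 of 27305 windows (0.0806%) and in 8 of the 5805 measured genes with a window. Of the called genes, FICD, ALG12 and CANX held it. The 30 bases around it are shown because these genes of ER folding and N-glycosylation moved in both directions, with the element in capitals:
FICD, chr12:108515118-108515147, plus strand: aacaaCCAATGGGAGTGGCCCACGgcgcgt
ALG12, chr22:49918548-49918577, minus strand: atggcCCAATCCGAGTTCGCCACGagaggt
CANX, chr5:179698773-179698802, plus strand: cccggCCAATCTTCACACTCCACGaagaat
FICD and ALG12 rose 1.49-fold and 1.27-fold (adjusted p = 3.57e-06 and 0.00306), and CANX fell 1.43-fold. A match describes the letters and not a bound site.

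The study gives the consensus that LRH-1 binds as YCAAGGYCR, with Y for a pyrimidine and R for a purine. The search was for the letters CAAGGTCA, part of this consensus with its variable bases fixed and any base before it. These were found on either strand in 3 of 319 genes called lower that had a window (0.940%), in 1 of 308 called higher (0.325%) in 53 of 5805 measured genes with a window (0.913%) and in 364 of all 27305 windows (1.33%). Windows were matched for 84.2% of the genes called lower and 83.2% of those called higher, but only for 78.7% of the genes not called, so no share is given for the last. Of the 4 genes, only ACYP1 has a pyrimidine before the motif, read on the strand that carries it. The 4 genes are shown with the motif in capitals, which in MARCHF5 is its reverse complement:
ACYP1, chr14:75069488-75069517, minus strand: tgcggtcagccCAAGGTCActtgacccagt
MARCHF5, chr10:92290917-92290946, plus strand: agggcTGACCTTGttgctaccgacagtgga
GRAMD1A, chr19:34994699-34994728, plus strand: atttcagcctgCAAGGTCAtgactctctgg
C9orf40, chr9:74953049-74953078, minus strand: tcctgaggaaaCAAGGTCAcgcccctctgc
ACYP1, MARCHF5 and GRAMD1A fell 1.2-fold, 1.22-fold and 1.15-fold (adjusted p = 0.0135, 0.0273 and 0.0302), and C9orf40 rose 1.15-fold (0.044). None of these 4 calls held with every array left out, siLRH-1 #1 replicate 4 and siLUC replicate 1 among them, and none of the largest falls or rises was among the genes with the motif in this window.

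The dolichol and N-glycosylation genes, of which DOLK and DPM2 fell most, had 5 of 43 measured genes higher and 3 lower (18.6%). The glycosyltransferases ALG5 and ALG12, and GMPPA, which regulates the supply of GDP-mannose, were the rises that stayed called with any 1 array left out. They rose 1.19-fold, 1.27-fold and 1.19-fold (adjusted p = 0.00804, 0.00306 and 0.0104). In transport between ER and Golgi, 8 of 53 genes were higher and 2 lower (18.9%), of which 2 and 2 stayed called with any 1 array left out. The number higher was 4 when siLRH-1 #1 replicate 4 or siLUC replicate 1 was left out, and 5 when siLUC replicate 4 was. The cargo receptor subunit MCFD2 rose 1.25-fold and the Golgi protein GOLIM4 1.24-fold (adjusted p = 0.00325 and 0.00135), while ERGIC2 fell 1.44-fold and GOLT1B 1.41-fold (9.53e-05 and 2.02e-05). HARS1, the cytosolic histidyl-tRNA synthetase, was 9.60, 9.64, 9.69 and 9.59 with siLUC and 10.19, 10.34, 10.17 and 10.26 with siLRH-1 #1, a rise of 1.53-fold (adjusted p = 4.17e-07). With LARS1, whose call was lost when siLRH-1 #1 replicate 4 or siLUC replicate 4 was dropped, it made 2 of 10 measured synthetases higher. Of 18 genes listed for the ATF4 arm of the stress response 1 was higher, DNAJB9, which is also counted among the ER chaperones above. In this list 2 were lower, among them GDF15, a secreted stress cytokine, which fell 1.53-fold (SE 0.08, adjusted p = 1.01e-05).

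Genes that run the G1 to S transition changed in both directions. D-type and E-type cyclins with their kinases release E2F factors, of which E2F2 and E2F3 mainly activate and E2F4, E2F5 and E2F6 mainly repress genes of DNA synthesis. Of 29 measured genes, 5 were higher and 4 lower (31.0%, median log2 change 0.00), and 4 and 3 of these stayed called with any 1 array left out. Beside the fall of CCND3 and the rise of E2F5, E2F6 rose 1.32-fold (SE 0.06, adjusted p = 0.000129) and E2F3 1.22-fold (SE 0.05, adjusted p = 0.00164). CCND1, cyclin D1, was 11.34, 11.39, 11.31 and 11.32 with siLUC and 11.65, 11.58, 11.63 and 11.53 with siLRH-1 #1, a rise of 1.2-fold (SE 0.06, adjusted p = 0.0132). CDC25A, the phosphatase that activates CDK2, fell 1.27-fold (adjusted p = 0.000296) and E2F2 1.24-fold (adjusted p = 0.00296). CCNE1, cyclin E1, was 9.74, 9.58, 9.66 and 9.60 with siLUC and 9.46, 9.34, 9.52 and 9.46 with siLRH-1 #1. All of its siLRH-1 #1 arrays were below the siLUC arrays, but the log2 change of -0.20 was not called (SE 0.06, adjusted p = 0.0619), and it was called with a trended, robust prior (0.0307) and among probes with a mean signal of at least 7 (0.0194).

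Of the other genes chosen from the cell cycle and p53 response, CDKN1A, MYC, CCNB1, CCNB2, MDM2 and BAX gave no call with siLRH-1 #1. CDKN1A, the inhibitor p21, had a log2 change of 0.09 (SE 0.14, adjusted p = 0.799), with 7.98 to 8.37 with siLUC and 8.07 to 8.44 with siLRH-1 #1. MYC had a change of -0.04 (SE 0.06, adjusted p = 0.819), CCNB1 of 0.11 (SE 0.07, 0.445), CCNB2 of 0.01 (SE 0.06, 0.954), MDM2 of 0.07 (SE 0.06, 0.62) and BAX of -0.12 (SE 0.08, 0.461). Of 17 measured p53 target genes 1 was called, and that call was lost when single arrays were left out. The study describes the p53 of HT29 cells as a mutant form that cannot switch on targets such as CDKN1A. Its part in these values was not tested.

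Genes of DNA replication were called in 1 direction. Of 28 measured genes, 8 were lower and 0 higher (28.6%, median log2 change -0.06), where 5.17% of all genes were lower. MCM10, a replication factor that acts with the replicative helicase, was 10.09, 9.73, 9.79 and 10.03 with siLUC and 9.30, 9.01, 9.13 and 9.02 with siLRH-1 #1, a fall of 1.74-fold (SE 0.09, adjusted p = 4.73e-06). CDC45, a subunit of the active helicase, was 11.90, 11.66, 11.78 and 11.88 with siLUC and 11.53, 11.24, 11.27 and 11.31 with siLRH-1 #1, a fall of 1.38-fold (SE 0.08, adjusted p = 0.000279). MCM4, a helicase subunit, fell 1.2-fold (SE 0.06, adjusted p = 0.0112). The other 5, FEN1, GINS2, GINS4, MCM7 and MCM6, had changes between 1.15-fold and 1.2-fold. The count of 8 was 3 when siLRH-1 #1 replicate 4 was dropped, 4 when siLUC replicate 1 or 4 was, and 5 when siLRH-1 #1 replicate 2 or 3 or siLUC replicate 2 was. None of MCM10, CDC45 and MCM4 was called with siLRH-1 #2 (log2 changes 0.08, 0.07 and -0.01), and the direct differences were called (-0.88, -0.54 and -0.25, adjusted p = 8.11e-07, 2.97e-05 and 0.0105), that of MCM4 being lost when siLRH-1 #2 replicate 1 was dropped (-0.20, adjusted p = 0.0574).

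In mitosis and cytokinesis, 4 of 50 measured genes were lower and 0 higher. That is 8.00%, against 10.2% of all genes called in either direction and 5.17% called lower. BIRC5, survivin, fell 1.36-fold (SE 0.07, adjusted p = 0.000114), the kinesin KIF2C 1.25-fold (0.00271) and CDCA3 1.24-fold (0.00282). Of 35 DNA repair genes, 5 were lower and 1 higher (17.1%), with falls of BARD1, the partner of BRCA1 (1.32-fold, adjusted p = 0.00062), FANCE (1.23-fold, 0.00269) and EXO1 (1.21-fold, 0.00707). The histone genes H2AC6 and H2BC11 fell 1.33-fold and 1.26-fold (9.43e-05 and 0.00112), 2 of 22 measured. Among 34 apoptosis regulators 6 were lower and 3 higher (26.5%). HTRA2, a mitochondrial protease, fell 1.39-fold (2.74e-05), CASP4, an inflammatory caspase, 1.31-fold (0.00335, or 0.0529 when each gene kept its own spread) and MCL1, an inhibitor of cell death, 1.30-fold (0.00127), so that members with opposed roles fell. None of the 3 called higher stayed called with every array left out, with 0 higher when siLRH-1 #1 replicate 3 or 4 was dropped.

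**Figure D4:**
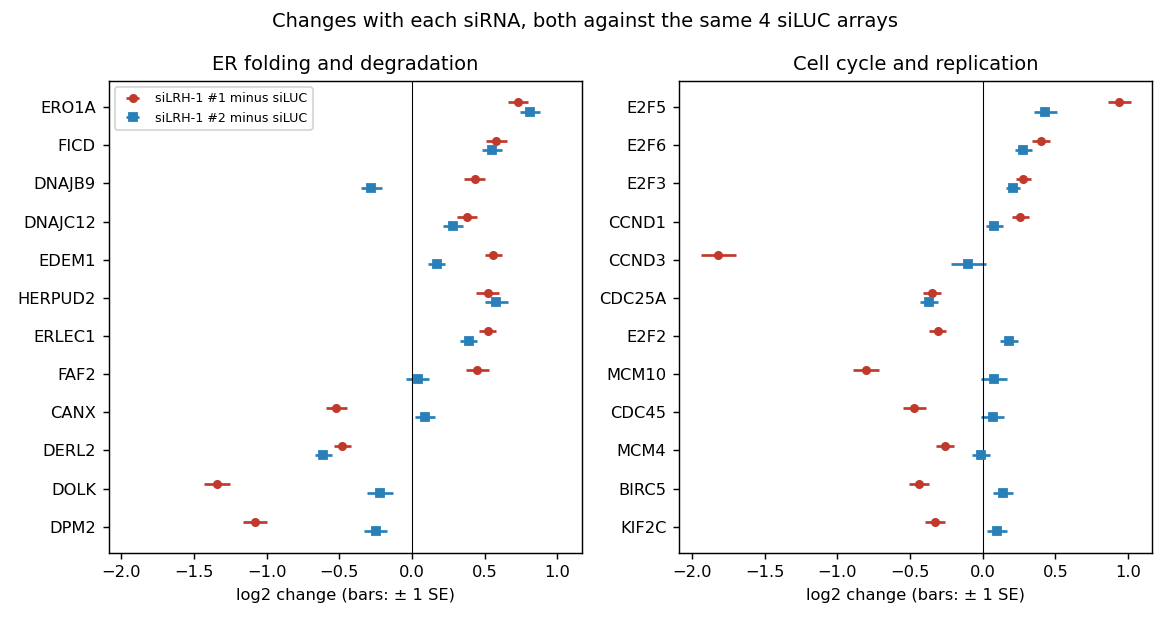
Log2 changes (x axis, bars ± 1 SE from limma) of genes named in the text, for siLRH-1 #1 minus siLUC (circles) and siLRH-1 #2 minus siLUC (squares), which share the 4 siLUC arrays. ERO1A, FICD, HERPUD2 and CDC25A lie close together for both siRNAs, while CCND3, DOLK, MCM10 and CANX lie far below 0 for siLRH-1 #1 alone.

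Growth factor receptors were called mostly as higher. Of 38 measured receptors, ephrins and FGF family genes, 8 were higher and 2 lower (26.3%, median log2 change 0.04), and 5 and 2 stayed called with any 1 array left out, the number higher being 5 when siLRH-1 #1 replicate 4 or siLUC replicate 1 was dropped. Beside FGFR3, MET, the receptor of hepatocyte growth factor, was 10.09, 9.98, 9.93 and 9.91 with siLUC and 10.53, 10.51, 10.39 and 10.42 with siLRH-1 #1, a rise of 1.4-fold (SE 0.08, adjusted p = 0.000397). ACVR1B, an activin receptor, and EPHA1, an ephrin receptor, each rose 1.29-fold (adjusted p = 0.000229 and 0.00082), and the ephrin EFNB2 fell 1.25-fold (0.00244). Among 17 EGF receptors and ligands, 1 was higher and 3 were lower (23.5%). ERBB3, the receptor with an impaired kinase that pairs with ERBB2, was 9.38, 9.31, 9.38 and 9.50 with siLUC and 8.80, 8.76, 8.76 and 8.75 with siLRH-1 #1, a fall of 1.54-fold (SE 0.07, adjusted p = 5.08e-06). The other 2 probes of ERBB3, both dimmer, changed by -0.11 and -0.21 on the log2 scale, with no call for either (0.326 and 0.0569). CBLC, a ubiquitin ligase of these receptors, fell 1.28-fold and the ligand BTC 1.24-fold (0.00162 and 0.00429), whereas the ligand HBEGF rose 1.27-fold (0.000561). ERBB3 was 9.24 to 9.61 with siLRH-1 #2, with a direct difference of -0.63 (adjusted p = 2.82e-06).

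Cytokine genes moved in both directions as well, with 4 of 34 higher and 2 lower (17.6%), and all 6 stayed called with any 1 array left out. CXCL8, interleukin-8, was 10.16, 10.16, 10.10 and 10.08 with siLUC and 10.53, 10.42, 10.43 and 10.77 with siLRH-1 #1. It rose 1.33-fold (SE 0.07, adjusted p = 0.000714). The other CXCL8 probe, with a mean log2 signal of 8.66, had a log2 change of 0.31 that was not called (adjusted p = 0.075). IL1A, dim at 6.02 to 6.27 with siLUC, rose 1.27-fold, CXCL16 rose 1.2-fold, and EDN1 and FAM3C are given above. IL6ST, the shared signalling receptor gp130, fell 1.66-fold (SE 0.09, adjusted p = 1.06e-05). EDN1, CXCL8 and CXCL16 differed directly from siLRH-1 #2 (0.91, 0.64 and 0.30, adjusted p = 5.42e-08, 2.36e-06 and 0.00141). Among 34 AP-1 and immediate early genes, 5 were higher and 1 lower (17.6%). DUSP1, a phosphatase that switches off MAP kinases, rose 1.33-fold (adjusted p = 0.00271, or 0.0504 when each gene kept its own spread), and CEBPD fell 1.34-fold (0.000442). The number higher was 3 when siLRH-1 #1 replicate 4 or siLUC replicate 2 or 3 was dropped, and the number lower was 2 when siLRH-1 #1 replicate 2 or siLUC replicate 1 was. MAPK6 rose 1.23-fold (0.00515), 1 of 5 genes higher among 51 MAP kinases and phosphatases, with MAPKAPK5 the 1 lower. Interferon-stimulated genes, which respond to foreign RNA, had 2 of 42 higher and 1 lower (7.14%). The receptor IFNGR1 rose 1.31-fold (0.000199), and the other called members, ISG20 and ISG15, changed 1.19-fold and 1.2-fold in opposite directions and lost their calls when some arrays were dropped, siLRH-1 #1 replicate 4 among them.

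Genes of adhesion and of the crypt had called members in both directions. Of 40 laminins, integrins and matrix genes, 8 were higher and 1 lower (22.5%), with 5 higher without siLRH-1 #1 replicate 4. The laminin LAMC1 rose 1.25-fold, the integrins ITGAV and ITGB1 1.24-fold and 1.23-fold (adjusted p = 0.00327, 0.00204 and 0.00265), and CD47 fell 1.25-fold (0.00698, or 0.0524 when each gene kept its own spread). LAMC1 moved in opposite directions with the siRNAs, by -0.35 on the log2 scale with siLRH-1 #2, with a direct difference of 0.67 (adjusted p = 4.75e-07). Of 28 Wnt targets and stem cell genes, 6 were higher and 3 lower (32.1%, median log2 change 0.06). ASCL2, a factor of intestinal stem cells, rose 1.27-fold (0.000758), the claudin CLDN1 1.26-fold (0.00377) and the protease MMP7 1.18-fold (0.0101). ETS2, a transcription factor, fell 1.23-fold (0.00303). Of 33 junction genes, 3 were higher and 2 lower (15.2%), with CXADR 1.25-fold higher beside CLDN12 and CLDN1, and DLG3 1.24-fold lower. The number lower was 1 when any 1 of replicates 1 and 4 of siLRH-1 #1 or 2 and 3 of siLUC was dropped. KRT80 was the 1 of 10 keratins called, with a fall of 1.35-fold (SE 0.07, adjusted p = 0.000415) that was smaller than with siLRH-1 #2 (2.11-fold, direct difference 0.64, adjusted p = 2.13e-06).

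Among 22 measured genes known as LRH-1 targets, 2 were higher and 1 lower (13.6%). The fall was in ABCC3, an exporter of bile acid conjugates, which was 11.10, 10.94, 11.03 and 11.17 with siLUC and 10.41, 10.34, 10.36 and 10.30 with siLRH-1 #1. It fell 1.63-fold (SE 0.07, adjusted p = 7.9e-07) and was not called with siLRH-1 #2 (log2 change -0.08, adjusted p = 0.583). The rises were in KLF4 and CCND1, and the KLF4 call was lost when siLRH-1 #1 replicate 4 or siLUC replicate 2 or 3 was dropped. Genes of lipid metabolism changed singly. FDPS, which makes the farnesyl chain used for sterols and dolichol, fell 1.49-fold (SE 0.08, adjusted p = 4.07e-05), while HMGCS1 and INSIG2, genes of sterol synthesis and its control, each rose 1.30-fold (0.00131 and 0.0004), in all 3 of 21 higher and 1 lower (19.0%). ACLY, which supplies acetyl-CoA, LPIN2, a phosphatidate phosphatase, and MGLL, a lipase, fell 1.31-fold, 1.35-fold and 1.30-fold (0.000147, 6.57e-05 and 0.000733), the 3 lower of 40 genes of fatty acid synthesis and glycerolipids, where 3 were higher. In fatty acid oxidation HADHA was 1 of the 2 lower among 31 genes, with 1 higher, and the other, CPT1A, changed 1.14-fold and was called only with some arrays kept.

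Of 32 genes of glycolysis and hypoxia, 3 were higher and 5 lower (25.0%). HIF1A, the oxygen-regulated transcription factor, was 8.06, 7.73, 7.94 and 7.84 with siLUC and 7.25, 7.22, 7.33 and 7.07 with siLRH-1 #1, a fall of 1.60-fold (SE 0.08, adjusted p = 1.06e-05). EGLN2, a prolyl hydroxylase of HIF, fell 1.48-fold (6.6e-06) and KDM3A, a histone demethylase, 1.31-fold (0.000463). ERO1A, INSIG2 and ADM were the rises. HIF1A, EGLN2 and KDM3A each differed directly from siLRH-1 #2 (-0.77, -0.71 and -0.42, adjusted p = 1.15e-06, 2.4e-07 and 0.0001). MAFG, a partner of NRF2, rose 1.36-fold (4.65e-05) among 20 antioxidant genes, of which 2 were higher and 1 lower. MT1G rose 1.23-fold (0.00542), the 1 of 5 metallothioneins called, and with siLRH-1 #2 its log2 change was -0.37.

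Mitochondrial genes had few calls by their brightest probes. Of 77 mitochondrial ribosomal proteins 1 was higher and 3 lower (5.19%), with MRPL49 1.51-fold lower (SE 0.06, adjusted p = 2.34e-06). Of 38 genes of ATP synthase and cytochrome oxidase 3 were lower (7.89%), with ATP5PB 1.51-fold lower (SE 0.07, 2.75e-06) and COX7A2L 1.26-fold lower (0.0063). With the mean of all probes of a gene, 7 of the ribosomal proteins were lower, and 6 of the ATP synthase and oxidase genes were lower and 1 higher. None of 20 genes of the TCA cycle and pyruvate entry was called (0 of 20), and 1 was called lower without siLRH-1 #1 replicate 2.

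In the endosomal and lysosomal lists, 6 of 59 genes of endocytosis were higher and 4 lower (16.9%), and 4 of 49 lysosomal genes were higher and 3 lower (14.3%). CAV2, a caveolin, rose 1.37-fold by its brightest probe (SE 0.07, adjusted p = 0.000121), and another of its probes rose by 0.88 on the log2 scale. The Commander subunits COMMD9 and COMMD5 fell 1.42-fold and 1.36-fold (2.59e-05 and 0.000156). VMA21, needed to assemble the proton pump of lysosomes, fell 1.51-fold (1.62e-05), the pump subunit ATP6V1B2 1.30-fold (0.000742) and cathepsin A, CTSA, 1.41-fold (0.000853), while the subunit ATP6V1D rose 1.24-fold (0.00177). Without siLRH-1 #1 replicate 4, 3 endocytosis genes and 1 lysosomal gene were higher, without siLUC replicate 3, 3 endocytosis genes, and without siLUC replicate 1, 2 lysosomal genes. Of 33 autophagy genes 3 were higher and 2 lower, with ATG4A and ATG4C 1.25-fold and 1.23-fold higher and ATG4B 1.21-fold lower (0.00489, 0.00458 and 0.00692). The number lower was 1 when any of 7 arrays was dropped, namely replicates 1, 2 and 4 of siLRH-1 #1, replicates 1, 2 and 4 of siLUC and replicate 1 of siLRH-1 #2.

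The cullin ligases and F-box proteins had 8 of 92 higher and 9 lower (18.5%, median log2 change 0.00), and 7 and 7 stayed called with any 1 array left out. Beside FBXW11, the adaptor KCTD5 fell 1.51-fold (SE 0.06, adjusted p = 2.4e-06), the scaffold CUL4A 1.47-fold (1.24e-05) and FBXO4 1.44-fold (9.43e-05). FBXL20 and FBXO32 each rose 1.31-fold (5.08e-05 and 0.000504).

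Genes that act on RNA included those of RNA interference. DICER1, which cuts microRNA precursors, was 8.13, 8.21, 8.24 and 8.35 with siLUC and 8.74, 8.48, 8.65 and 8.63 with siLRH-1 #1, a rise of 1.31-fold (SE 0.06, adjusted p = 0.000387). AGO3, an Argonaute that holds the guide strand, rose 1.37-fold (0.000199) and the decapping enzyme DCP2 1.42-fold (1.03e-05). The exosome subunit EXOSC3 fell 1.64-fold (SE 0.07, 9.99e-07) beside CNOT11, in all 4 of 45 higher and 4 lower (17.8%), with 2 lower when siLRH-1 #1 replicate 4 or siLUC replicate 1 or 2 was dropped. DCP2 reached a higher level with siLRH-1 #2 (siLRH-1 #1 minus #2, a difference of -0.27, adjusted p = 0.00568). For DICER1 the difference of -0.22 (adjusted p = 0.0323) was lost (adjusted p up to 0.119) when any of 6 arrays was dropped, namely replicates 2, 3 and 4 of siLRH-1 #1 and replicates 1, 2 and 3 of siLRH-1 #2. Of 80 hnRNP, spliceosome and helicase genes, 7 were lower and 2 higher (11.2%), with falls of DHX15 (1.32-fold, 0.000396), DDX42 (1.30-fold, 0.000772) and HNRNPC (1.28-fold, 0.000645) and rises of CLK4 (1.24-fold, 0.00252) and MBNL2 (1.26-fold, 0.00898). Another bright HNRNPC probe had a log2 change of 0.01 (0.952), and the MBNL2 call was lost (0.0689) when each gene kept its own spread.

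Chromatin and transcription genes were close to the background. Of 97 chromatin genes 6 were higher and 6 lower (12.4%). The deacetylase HDAC3 rose 1.43-fold (SE 0.06, adjusted p = 9.19e-06) and the demethylase KDM5B 1.31-fold (0.00117), and the methyltransferase EZH2 fell 1.30-fold (0.000512). KDM5B went the other way with siLRH-1 #2, by -0.25 on the log2 scale, with a direct difference of 0.64 (adjusted p = 2.13e-06). Of 80 Mediator and general transcription genes 5 were higher and 6 lower (13.8%), with MED28 1.43-fold higher (9.43e-05) and MED29 1.42-fold and MED22 1.34-fold lower (2.84e-05 and 0.00021). Of 21 LRRC8 and chloride channel genes 3 were higher and 0 lower. LRRC8A rose 1.27-fold beside LRRC8B (0.00355) and had the opposite direction with siLRH-1 #2 (log2 change -0.81, direct difference 1.16, adjusted p = 5.77e-10). Of 20 homeobox genes, HOXB6 (1.51-fold, 4.37e-06) and IRX2 (1.24-fold) were higher, and HOXA2 (1.43-fold, 0.000134), HOXC4 (1.4-fold, 3.72e-05) and MEIS2 (1.24-fold, 0.00515) were lower. Of 69 heat shock and DNAJ genes 4 were higher and 4 lower (11.6%), with 2 higher and 2 lower without siLRH-1 #1 replicate 4, and 2 higher without siLUC replicate 3.

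**Figure D5:**
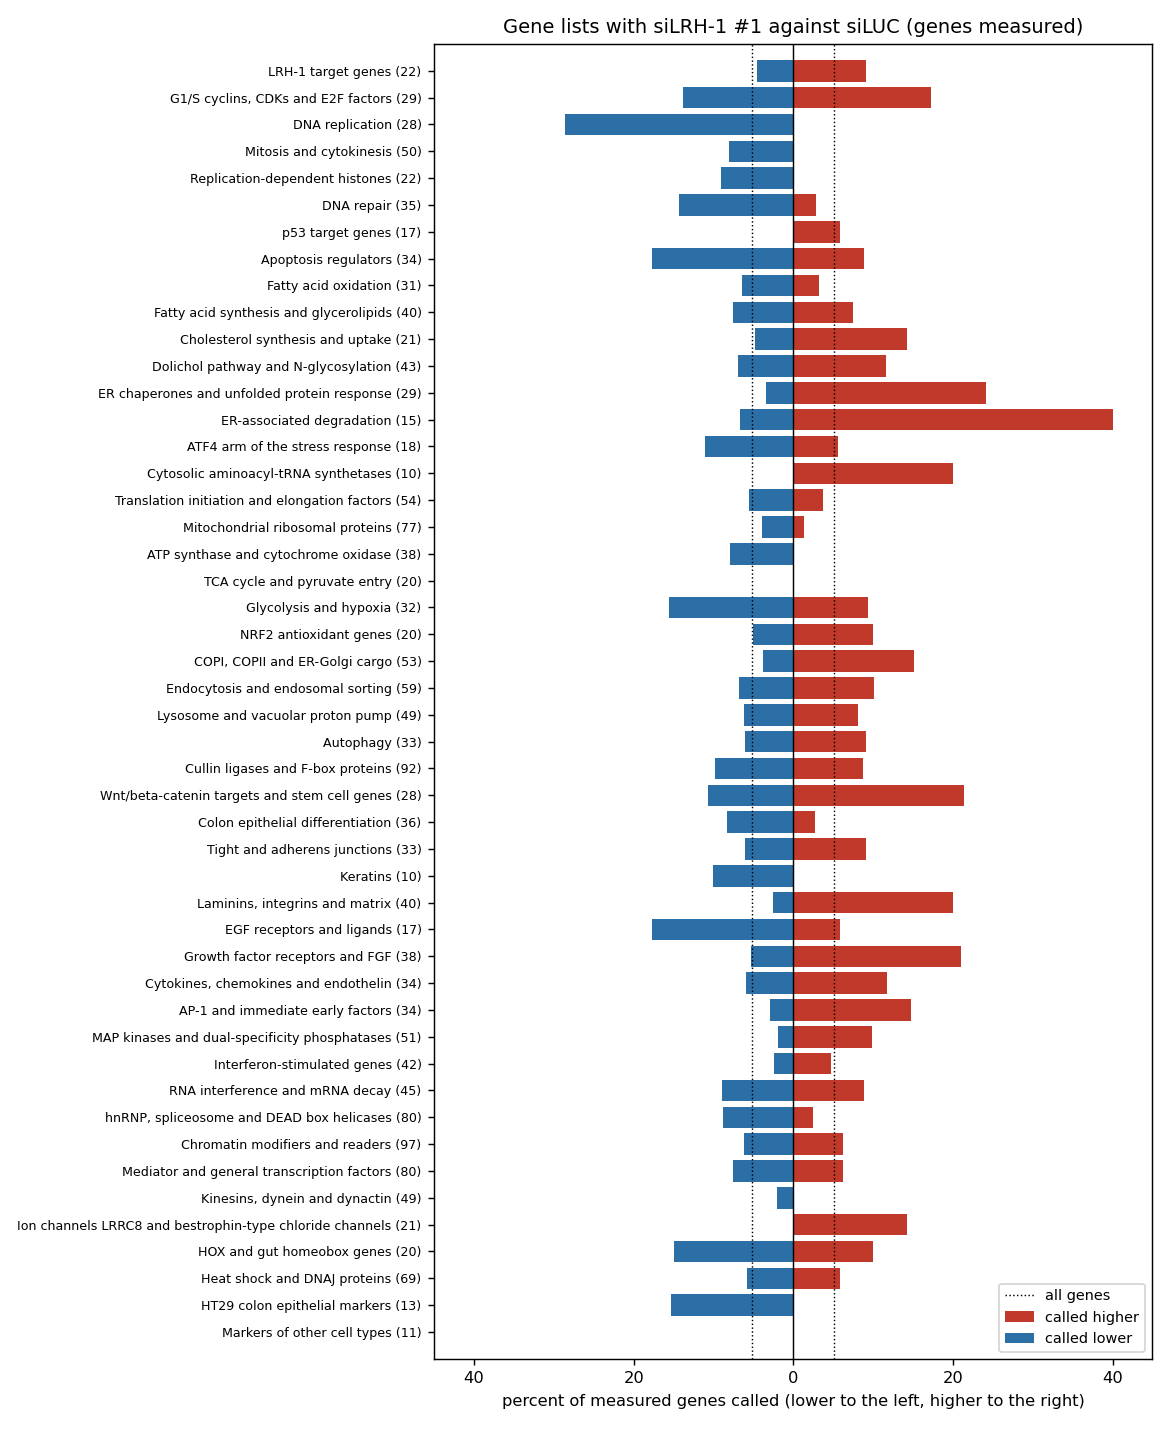
Bars give the percent of the measured genes of each list (number in brackets) called higher (right) and called lower (left) with siLRH-1 #1, for the reported lists with at least 10 measured genes. Dotted lines mark the shares over all genes, 5.05% higher and 5.17% lower, and ER-associated degradation reaches furthest to the right (6 of 15) and DNA replication to the left (8 of 28).

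The remaining lists held few calls. Leaving out siLRH-1 #1 replicate 4 also lowered counts given above, the number higher to 3 of 43 for N-glycosylation, 1 of 40 for fatty acid synthesis and 2 of 51 for MAP kinases and phosphatases, and the number lower to 3 of 35 for DNA repair and 1 of 77 for mitochondrial ribosomal proteins. Translation factors had 2 of 54 higher and 3 lower (9.26%), of which EIF5A2, 1.31-fold lower (adjusted p = 0.000354), stayed called with any 1 array left out. Kinesins and dynein had 1 of 49 lower, colon differentiation genes 1 of 36 higher and 3 lower, and the 1 measured proteasome gene was not called. The differentiation genes had 0 higher when siLRH-1 #1 replicate 4 or siLUC replicate 2 or 3 was dropped, and 1 lower when any 1 of replicates 1, 3 and 4 of siLRH-1 #1 or 3 and 4 of siLUC was. Over all 51 lists, 262 of 1829 distinct genes were called (14.3%), and 174 of these stayed called with any 1 array left out. The lists were chosen with earlier results known, and their share is no test against the 10.2% of all genes.

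The label of the cells was compared with markers. Of 13 measured markers of colon epithelium, EPCAM, KRT8 and KRT19 were bright (mean log2 signal 13.44, 12.52 and 12.52), and the summed log2 signal of the list was 129.31 to 129.70 with siLUC and 128.14 to 129.60 with siLRH-1 #1. CEACAM5 and ELF3 were called lower, and each call was lost with some array left out. GPA33 (6.26) and CDX2 (6.92) were dim. Of 11 measured markers of fibroblast, immune, vessel, liver and nerve cells 0 were called, and 8 had a mean signal under 7, among them COL1A2, DCN, CD14 and CD34. LYZ, lysozyme, was bright at 13.70, and CD68 (7.65) and ALB (7.24) lay above 7. The summed signal of these markers was 77.56 to 77.87 with siLUC and 77.03 to 77.80 with siLRH-1 #1. Their part in the results was not tested.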

How the data were processed

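The authors read the arrays in GenomeStudio, dropped probes with a detection p above 0.05 in every sample, and used Partek, per the submitters' processing notes. The sources used here give no versions. Deposited values are log2 signals, quantile-normalized by the authors, with array medians of 6.56 to 6.57. Another table, whose 24 columns match no label, was not used. No 2 arrays were identical (0 pairs). The number of arrays limits precision. The p-values of the reported fit rest on the spread between the 4 cultures within each group, pooled over all 12 arrays and moderated across probes. The spread within every group thus enters each p-value, also where that group is not compared.

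Probes were named from the platform annotation (9756 with 1 symbol, 4 with several, 6621 with none), and 9746 gene IDs matched RefSeq (GRCh38.p14). The probe with the highest mean signal stood for a gene.

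Changes were fitted with limma 3.58.1 in R 4.3.3 on all 12 arrays (group means, eBayes, 9 residual and 12.1 prior degrees of freedom), with two-sided p-values adjusted by Benjamini and Hochberg's method over the 16381 probes. Every p in the text is such an adjusted p, and a call is one under 0.05. The fit was tested on simulated data.

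Named genes were the 20 with the largest called change in each direction and no overlap of arrays, genes the study discusses, unnamed probes by count, and up to 4 called members of a list in each direction. List members that lost their call with some array left out were named only where the text says so. Genes and lists were chosen with earlier results of these data known. Matches to the siRNA guide strand in 3′ UTRs were not analysed here. The result of 1 gene list is not reported here.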

Additional observations from a re-analysis of the deposited data

Results flagged for a closer look

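For each named gene the 4 arrays of siLUC and of siLRH-1 #1 were searched for 1 array far from the other 3. Of 366 groups of 4 arrays, 23 (6.28%) held such an array, where chance gives about 1 in 20. The array was siLRH-1 #1 replicate 4 in 6 groups and replicate 2 in 5, and each other array in 2.

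In siLRH-1 #1 replicate 4 the signal was 9.43 for CCND3 (others 9.90 to 9.94), 10.22 for DNAJC9 (10.39 to 10.42), 8.17 for EDN1 (7.98 to 8.01), 7.83 for HTRA2 (7.92 to 7.93), 11.93 for ATP5PB (12.08 to 12.09) and 8.17 for ERGIC2 (8.42 to 8.47). In each of these 6 genes this array lay further from siLUC than the other 3. In siLRH-1 #1 replicate 2 it was 10.96 for MRPS33 (11.03 to 11.05), 9.73 for KRT80 (9.92 to 9.93), 7.90 for DUSP1 (8.08 to 8.09), 7.89 for BRD3 (7.80 to 7.81) and 9.42 for CCNT1 (9.66 to 9.68). Replicate 1 of siLRH-1 #1 gave 7.17 for EIF5A2 (7.04 to 7.06) and 8.80 for ERBB3 (8.75 to 8.76), and replicate 3 gave 7.16 for FBXO4 (6.83 to 6.86) and 7.86 for BRF2 (7.94 to 7.95).

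Among the siLUC arrays, replicate 1 gave 9.46 for BIRC5 (9.37 to 9.38) and 9.14 for KIF2C (8.85 to 8.89), and replicate 2 gave 7.04 for HMOX2 (6.89 to 6.90) and 9.63 for E2F6 (9.53 to 9.54). Replicate 3 gave 7.35 for EIF5A2 (7.5 to 7.52) and 8.72 for KDM5B (8.54 to 8.56), and replicate 4 gave 9.24 for FANCE (9.12 to 9.13) and 9.60 for LAMC1 (9.76 to 9.79). All of these genes are called in the report with the array included and with it left out.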

How the results depend on the processing

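With the stricter threshold of 0.01, 596 probes were called (250 higher, 346 lower), and 418 genes (186 higher, 232 lower). With 1 array left out, the called probes numbered 700 to 1210 (285 to 555 higher, 415 to 655 lower), those changed at least 1.5-fold 81 to 101, the genes 473 to 787 (207 to 388 higher, 266 to 399 lower), and the list members 189 to 273. The lowest of each came without siLRH-1 #1 replicate 4. The other alternatives (8 arrays, no moderation, trended and robust prior, median centring, a second quantile normalization, bright probes, mean of all probes) kept every count over all probes or genes within 1.5 times, with 887 to 1454 called probes.

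With the replicate number as a block, 1058 probes were called, and 0 of the named changes but 4 direct differences (GULP1, ATG4A, EPHA1 and CCNT1) lost their call. Same-numbered siLUC and siLRH-1 #1 arrays deviated with correlations of -0.05, 0.08, 0.03 and 0.18, so the numbers were not taken to pair the arrays.

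Of 3828 values of 183 named changes, 3803 kept direction and call and 21 lost the call. CCNB2 turned to -0.01 without siLRH-1 #1 replicate 4 or siLUC replicate 2, a gene that was not called. The mean of all probes ended the calls of ETNK1, MRPS33 and MEIS2, and no moderation those of CPOX, BTG3, CASP4, KLHL3, CD47, DUSP1, MBNL2 and HNRNPU. Of 1940 values of 108 direct differences between the siRNAs, 71 lost the call and 0 reversed. The cause of these changes was not tested. Dim probes limit what can be seen: a fall near the background is compressed. The study's siLRH-1 #2 replicate 2 stood apart, with 50 probes at least 0.5 above all other arrays. In the changes against siLUC it enters only the spread, but it enters every siLRH-1 #2 value and direct difference given.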
